A study of Caenorhabditis elegans with 2 samples.

Results

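Pumilio (PUF) proteins are RNA-binding repressors, and 9 Caenorhabditis elegans genes of the family were followed through lists of regions recovered with SMA-3. The 9 genes, puf-9, puf-8, puf-12, puf-11, puf-5, puf-3, fbf-2, fbf-1 and puf-7, were taken from 19973 protein-coding genes. They were chosen by name, with the region ranks of these same lists in view, so the ranks and counts below describe them and carry no test. The question was where SMA-3-associated regions lay at puf-9, which acts in somatic tissue, and at the other 8 members, most of them known mainly from the germline. SMA-3, a Smad that DBL-1 receptors activate, was recovered with an anti-GFP antibody from whole hermaphrodites of strain CS152, which carry the sma-3(wk30) mutation and the transgene qcIs[gfp::sma-3+rol-6], introduced by microinjection. All animals were L2 larvae taken 24 hours after release from synchronisation as starved L1 larvae, and there were 2 biological replicates of this 1 group. The labels give neither the promoter nor the copy number of the transgene, nor the tissues in which the fusion protein was made, and they describe the tag as C-terminal although the strain name writes it first. Each replicate and the pooled reads gave a list of 30000 regions, ordered here by signal. The optimal list, kept by the authors' reproducibility procedure, held the 4205 pooled regions of highest signal. Depth is unknown, both replicates had the same control, and no immunoprecipitate without the tagged protein was analysed here.

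PUF proteins bind short elements in messenger RNAs, most often in 3′ UTRs, and recruit deadenylases and translational repressors. PUF-9 and PUF-8 are related to fly Pumilio, and PUF-9 represses the hunchback homolog hbl-1 in the timing of epidermal and neuronal development. FBF-1 and FBF-2 keep germline stem cells in proliferation and drive the switch from sperm to oocytes, PUF-8 restrains germ cell proliferation and dedifferentiation, and PUF-3, PUF-5, PUF-7 and PUF-11 act in oocytes and early embryos. SMA-3 itself is present in the epidermis, intestine and pharynx, and it is in the epidermis that it carries the DBL-1 signal for body size. In whole animals, recovery in fewer cells of a type and weaker recovery per cell cannot be told apart.

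The sequence under the strongest region at puf-9 is shown first because it carries the largest value of the family, followed by those under the other optimal regions and the best region of puf-12. All are from the forward strand of WBcel235 (ce11), written 5′ to 3′, and capitals mark letters of any motif searched, on either strand. The first is chrX:5841146-5841445, 300 bases with the summit at base 150. The second is chrX:5837168-5837318, the third chrII:7301786-7301936 and the last chrII:10100032-10100182, each 75 bases on either side of a summit at base 76. None overlaps a protein-coding gene.
puf-9 upstream: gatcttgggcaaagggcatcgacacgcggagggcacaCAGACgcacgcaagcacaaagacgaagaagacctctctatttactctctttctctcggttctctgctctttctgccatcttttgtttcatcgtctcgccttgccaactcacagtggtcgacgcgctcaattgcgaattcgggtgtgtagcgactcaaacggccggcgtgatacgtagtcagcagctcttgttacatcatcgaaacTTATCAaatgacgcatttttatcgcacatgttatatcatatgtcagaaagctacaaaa
puf-9 distal: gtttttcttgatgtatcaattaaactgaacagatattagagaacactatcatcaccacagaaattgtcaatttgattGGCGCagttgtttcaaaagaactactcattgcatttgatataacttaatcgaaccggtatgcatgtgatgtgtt
puf-8 and cul-4: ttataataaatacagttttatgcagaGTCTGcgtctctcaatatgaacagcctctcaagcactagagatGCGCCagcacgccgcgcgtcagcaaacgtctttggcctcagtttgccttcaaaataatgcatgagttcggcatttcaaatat
puf-12 upstream: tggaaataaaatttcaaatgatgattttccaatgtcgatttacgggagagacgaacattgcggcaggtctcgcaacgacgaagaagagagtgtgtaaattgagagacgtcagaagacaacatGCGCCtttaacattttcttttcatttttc

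The region just upstream of puf-9 stood among the highest in the experiment, and no other family gene came near it. The values here are signals, the authors' number per region, and serve to rank regions within 1 list. Replicate 1 gave this region a signal of 449, replicate 2 a signal of 607 and the pooled list a signal of 1045. Its rank was 9 of 30000 regions in replicate 1, 9 in replicate 2 and 9 in the pooled list. Relative to the highest signal of its own list, it reached 59.9% in replicate 1, 59.3% in replicate 2 and 59.3% in the pooled list. Both replicates thus placed it at nearly the same relative height and at the same rank. Its −log10 q was 3.95 in replicate 1, 4.07 in replicate 2 and 4.10 in the pooled list, the highest value of each list and one that 6361 pooled regions shared. In the pooled order the next higher region was that of iff-2, which encodes eIF5A (rank 8, signal 1123). The next lower one was that of cox-5A, a subunit gene of cytochrome c oxidase (rank 10, signal 994).

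The region spanned chrX:5841007-5841453 (447 bp) in the pooled list, and puf-9 (WBGene00004245) occupies chrX:5841592-5845987 on the forward strand with 1 annotated transcript start. The pooled summit lay 297 bp upstream of that start, the summit of replicate 1 lay 291 bp upstream and that of replicate 2 lay 286 bp upstream. The replicate summits were thus 6 and 11 bp from the pooled one, in intergenic sequence with respect to protein-coding genes. The pooled summit also fell inside a pair of overlapping short non-coding RNA genes on opposite strands, W06B11.7 (chrX:5841170-5841350) and W06B11.9 (chrX:5841185-5841361). An annotated ncRNA gene covered the summit of 7.71% of the 4205 optimal regions and of 2.26% of the 25795 pooled regions below them. The nearest protein-coding transcript start was that of puf-9 itself.

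**Figure D1:**
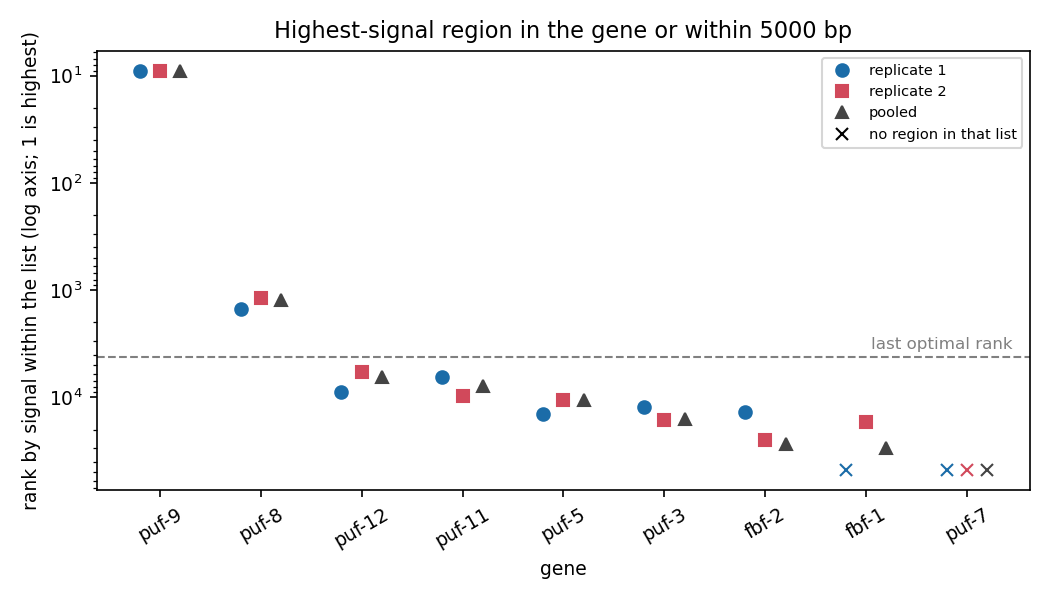
Rank of the highest-signal region in each gene or within 5000 bp (log axis, 1 is the highest signal of a list) for replicate 1 (circles), replicate 2 (squares) and the pooled list (triangles). Crosses mark genes with no region in a list, and the dashed line is rank 4205, the last optimal rank. The 3 symbols of puf-9 stand at rank 9, those of puf-8 lie between 1175 and 1505, and all other symbols lie below the line.

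Of the 9 genes, 2 (puf-9 and puf-8) had an optimal region in the gene or within 5000 bp. Over all 19973 protein-coding genes the share was 39.2%, and over the 2731 protein-coding genes on X, where puf-9 lies, it was 45.2%. The family as a whole was therefore not above the background by this count (22.2%). By promoter window, from 1000 bp upstream to 200 bp downstream of a start, only puf-9 of the 9 had an optimal summit, against 14.4% of all protein-coding genes. What set puf-9 apart from the other members was the height of its region. A pooled rank of 9 or higher in the gene or within 5000 bp was held by 0.175% of protein-coding genes, and a rank as high as that of puf-8 (1230) by 16.0%.

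The other 7 genes lay lower and in the middle or lower part of all genes. Among the 15474 protein-coding genes with any pooled region in reach, the median best rank was 4134. The best ranks were 6451 for puf-12, 7834 for puf-11, 10512 for puf-5, 15899 for puf-3, 27259 for fbf-2 and 29633 for fbf-1, and puf-7 had no region. These ranks were reached or passed by 49.3% of protein-coding genes for puf-12, 53.4% for puf-11, 59.5% for puf-5, 66.6% for puf-3, 76.2% for fbf-2 and 77.4% for fbf-1. Genes with no pooled region in reach made up 22.5% of all protein-coding genes.

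**Figure D2:**
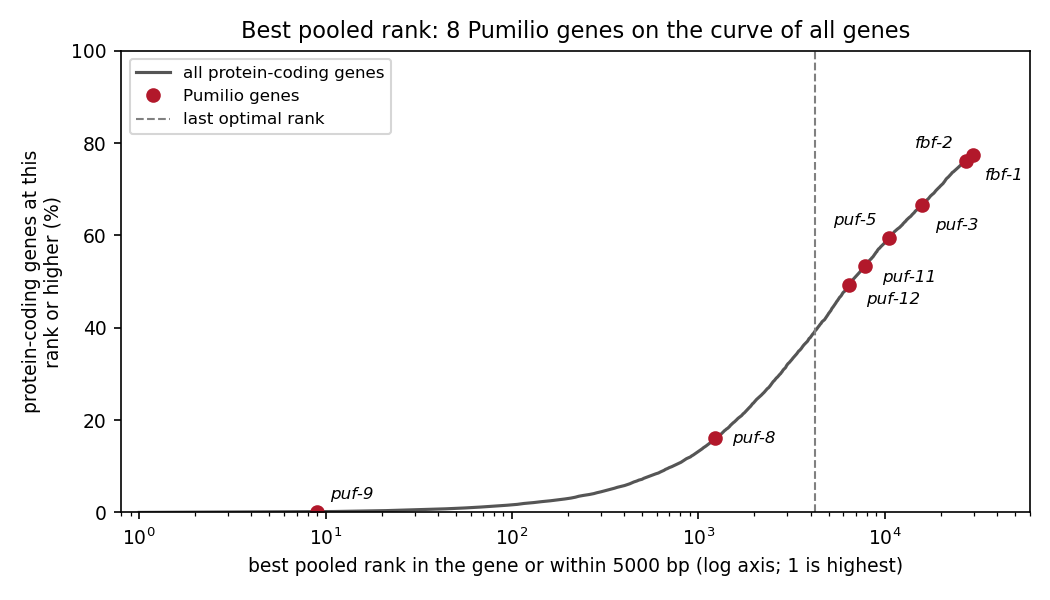
Share of protein-coding genes (%) whose best pooled rank, in the gene or within 5000 bp, is at the given rank or higher (log axis), with 8 Pumilio genes as points on that curve; puf-7 has no pooled region and is not shown. puf-9 sits at the far left at rank 9, puf-8 at 16.0% and the other 6 between 49.3% and 77.4%, right of the dashed line at rank 4205.

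A second optimal region at puf-9 was weak and lay far upstream. It spanned chrX:5837043-5837442 with its summit 4349 bp upstream of puf-9 and 2438 bp upstream of F13D11.4, whose start was nearer. Its signal was 31.6 in replicate 1 (rank 4102), 38.8 in replicate 2 (rank 4667) and 75.1 in the pooled list (rank 3901). Replicate 2 placed it outside its own 4205 highest regions, and replicate 1 placed it just inside. The lowest optimal region of the whole list had a signal of 70.1, so this was the member region just inside the optimal list, and the upstream region of puf-12 (signal 47.0) was the one just outside.

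Beyond these, the puf-9 locus held 8 pooled regions below the optimal list, with signals from 11.3 to 40.6. The highest of them lay 44 bp upstream of dct-11, the gene on the reverse strand to the left of puf-9. Its signal was 14.1 in replicate 1, 24.7 in replicate 2 and 40.6 in the pooled list. Another lay 191 bp upstream of atat-2, a gene for an alpha-tubulin acetyltransferase and the next gene to the right, with a signal of 17.3 in replicate 1, 13.2 in replicate 2 and 33.0 in the pooled list. Inside puf-9, 1 pooled region (signal 33.0, rank 9146) had its summit in an exon 3768 bp from the start. With 10 pooled regions in reach, puf-9 had more than any other member, against 0 to 4 at the other 8. The median over all protein-coding genes was 3. The span of puf-9 was also the longest of the 9 (4396 bp, against 1856 bp at puf-3 to 3610 bp at puf-7), which widened its window. Only 1 of the 10 was nearest to the puf-9 start, and 1 had its summit inside the gene. Of its 10 regions, 6 overlapped a region of both replicates, a count for which no share over all pooled regions was computed.

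puf-8 (WBGene00004244, chrII:7296110-7298247, reverse strand) was the only other member in reach of an optimal region, and that region lay at a different gene's start. It spanned chrII:7301765-7301955, with its summit 3614 bp upstream of puf-8 and 240 bp upstream of cul-4, a cullin of ubiquitin ligases that is transcribed in the opposite direction. Between it and puf-8 lies C30G12.1. Its signal was 63.6 in replicate 1 (rank 1505), 104 in replicate 2 (rank 1175) and 172 in the pooled list (rank 1230). Both replicates held it among their 4205 highest regions. A single further pooled region, of signal 10.7, lay inside cul-4, and puf-8 itself held no region in any of the 3 lists. By protein sequence puf-8 was the closest relative of puf-9 among the 9, with 50% identical residues over 330 aligned, against 19.6% (puf-12) to 32.7% (puf-3) for the others.

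puf-12 (WBGene00014165, chrII:10100310-10103061, forward strand) resembles human PUM3, which acts in the nucleolus, and was the most divergent of the 9 from puf-9. Apart from puf-9, it alone of the 9 had its best pooled region nearest to its own start. That region, chrII:10099907-10100306, had its summit 203 bp upstream, inside the ncRNA gene ZK945.13. It lies between the start of puf-12 and that of pas-7, a neighbour on the reverse strand. In replicate 1 its summit was nearer to pas-7 (217 bp upstream) than to puf-12 (239 bp upstream). The region had a signal of 15.8 in replicate 1 (rank 9205), 31.9 in replicate 2 (rank 5861) and 47.0 in the pooled list (rank 6451, −log10 q 3.63). The replicates differed in which region they put highest here. Replicate 1 gave a signal of 16.3 to a region in lact-2, 1766 bp upstream of puf-12 by its pooled summit, to which replicate 2 gave 19.2.

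puf-11 and puf-3 share 89.8% of residues over 500 aligned and act redundantly in oocytes and early embryos, but lie next to different genes. At puf-11 (WBGene00022257, chrIV:6421585-6423497) the best region lay in an exon of acp-6, 4273 bp downstream of the puf-11 start. Its signal was 21.4 in replicate 1 (rank 6434), 20.3 in replicate 2 (rank 9663) and 38.3 in the pooled list (rank 7834). At puf-3 (WBGene00004239, chrIV:13510307-13512162) the best pooled region, of signal 19.7, lay in the decapping enzyme gene dcap-2, 4020 bp upstream. It had a counterpart in replicate 2 (signal 13.5) and none in replicate 1. A region within 1000 bp upstream of puf-3, 956 bp from its start and inside the overlapping gene afmd-2, had a signal of 12.4 in replicate 1 and 15.4 in the pooled list and no counterpart in replicate 2. Each of the best regions at this pair was thus inside another gene.

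puf-5 and puf-7 function in oocyte formation. At puf-5 (WBGene00004241, chrII:8575541-8577787) the best pooled region overlapped the 3′ end of the gene, and its summit lay past that end, 181 bp upstream of the next gene, F54C9.9. Its signal was 10.9 in replicate 1 (rank 14441), 18.1 in replicate 2 (rank 11121) and 28.8 in the pooled list (rank 10512). Replicate 2 put a different region highest at puf-5, with its summit in rpl-5 (signal 18.9, rank 10516). The other 3 pooled regions at puf-5 lay near the starts of bcs-1 and the ribosomal protein gene rpl-5, with signals from 14.0 to 17.8. At puf-7 (WBGene00004243, chrIV:5486713-5490322) no list held any region within 5000 bp. It lay in a stretch free of regions that measured 79245 bp in replicate 1, 62637 bp in replicate 2 and 63194 bp in the pooled list. At the other members the pooled stretch, measured past any region inside the gene, ran from 4691 bp at puf-9 to 32499 bp at fbf-1. Such stretches were not measured over all genes.

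The stem cell regulators fbf-2 and fbf-1 had the lowest best regions of the 9 in the pooled list, apart from puf-7, which had none, and stood higher in 1 replicate each. At fbf-2 (WBGene00001402, chrII:6088863-6091480) the best pooled region had a signal of 11.8 and lay in tpp-2, 4989 bp upstream. Replicate 2 gave it a signal of 9.35, and replicate 1 had no region there. In replicate 1 the single region at fbf-2 (signal 11.3, rank 13749) lay in nspg-3, 813 bp upstream of the fbf-2 start. At fbf-1 (WBGene00001401, chrII:6078263-6080843) a pooled region of signal 10.7 overlapped the 3′ end of the gene, with its summit in H12I13.6. Its signal in replicate 2 was 12.9 (rank 16970) and replicate 1 had no region at the locus. The lowest signal in the pooled list was 10.5, so these regions lay at its lower edge.

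**Figure D3:**
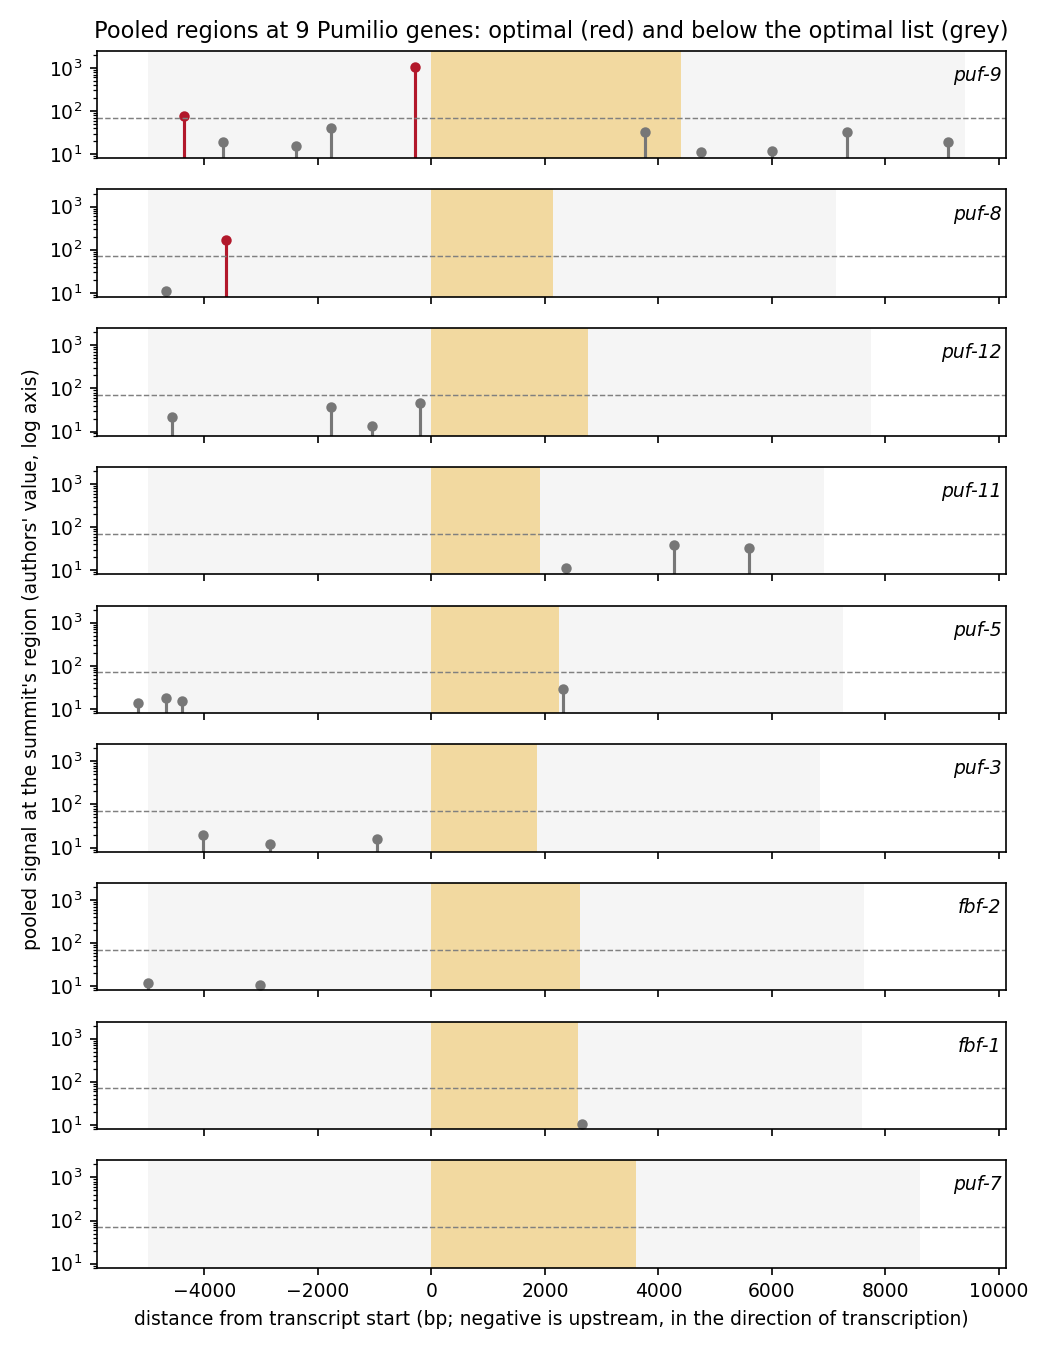
Pooled regions at each of the 9 genes, drawn at the distance of the summit from the transcript start (bp, negative upstream) with the pooled signal on a log axis. The tan band is the gene, the light grey bands are 5000 bp on either side, the dashed line is the lowest optimal signal (70.1), and red marks optimal regions. The tallest line is that of puf-9 at 297 bp upstream (1045), and the puf-7 panel is empty.

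Over the 9 genes, 29 pooled regions lay in reach, and 3 of them were optimal. Of the 29, 2 had a member's start as the nearest start (1 at puf-9 and 1 at puf-12), and 1 had its summit inside a member (puf-9). In all, 15 overlapped a region of both replicates, 6 of 10 at puf-9 and 9 of 19 at the other members, and 2 overlapped none. The same share over all 30000 pooled regions was not computed, so these counts have no background and no difference is read from them. Matching counted any overlap of at least 1 bp, and a replicate region may match more than 1 pooled region.

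Several of the low-ranking genes have near-identical copies. puf-7 has 97.5% of residues over 485 aligned in common with puf-6, a family gene outside the 9, and fbf-2 has 92.3% over 608 in common with fbf-1. Of the 31-base stretches in the gene span, 0% at puf-9, puf-8, puf-12 and puf-5 occurred more than once in the genome. The share was 5.79% at puf-11, 5.97% at puf-3, 30.6% at fbf-2, 31.3% at fbf-1 and 64.5% at puf-7, against a median of 0% over all protein-coding genes. With 5000 bp on each side it was 0% at puf-9, 25.3% at fbf-2, 53.0% at fbf-1 and 41.9% at puf-7, against a median of 3.20%. The handling of reads with several matches is not stated in the labels or lists, and the part of repeated sequence in the absence of regions was not tested. The best pooled ranks at the genes with 0% in the gene span were 9 for puf-9, 1230 for puf-8, 6451 for puf-12 and 10512 for puf-5. Any relation of rank to repeats was not tested.

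**Figure D4:**
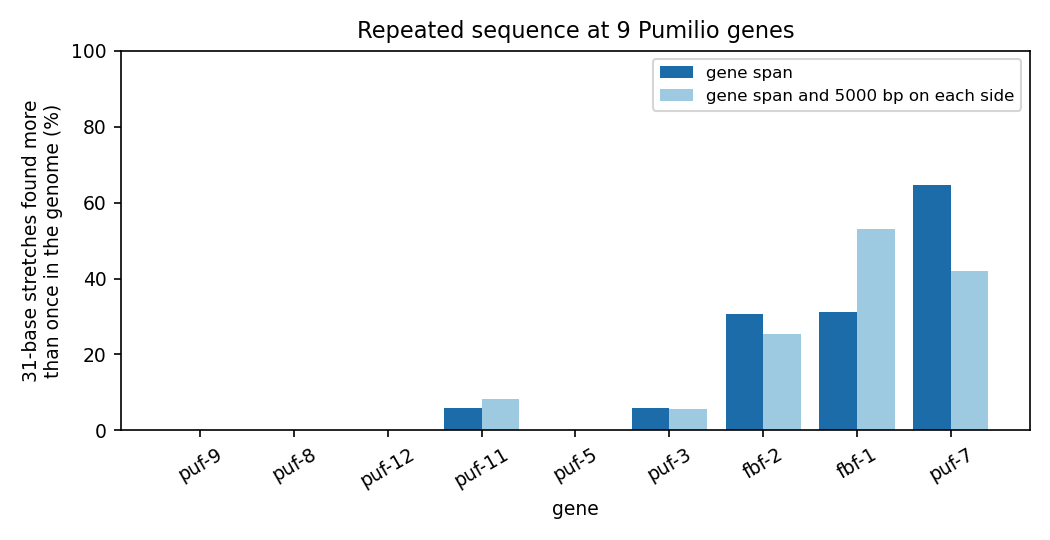
Share (%) of 31-base stretches that occur more than once in the genome, on either strand, for the gene span (dark bars) and the gene with 5000 bp on each side (light bars). The bars of puf-9, puf-8, puf-12 and puf-5 are at or near 0%, and those of fbf-2, fbf-1 and puf-7 run from 25.3% to 64.5%.

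The remaining family genes were also followed. puf-6 (chrII:13039792-13043445) had no optimal region, and its best pooled region (signal 20.8, rank 14981) lay in F18A11.3. Its gene span had 63.7% repeated stretches. The pseudogene puf-4 on chromosome IV had 1 optimal region within 5000 bp, with a pooled signal of 93.6 (rank 2988). The highest signal within 5000 bp of puf-4 was 38.0 in replicate 1 and 53.6 in replicate 2. Overlap of those replicate regions with the optimal one was not checked. The pseudogene puf-10 had no region in any list.

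The sequence under these summits was not used to choose the genes and is given as a description. Searched on both strands within 75 bases of the summit were the Smad box GTCTG, its extended form CAGACA, the GC-rich Smad site GGCGC and its longer relative GCCGNCGC. The search also covered the repeat GAGAGAGA, the E-box CACGTG, the GATA site TGATAA and a variant of it, AGATAA. Every CAGACA also counts as a GTCTG, read on the opposite strand. The puf-9 summit window of rank 9 held none of these 8 motifs. The share of all optimal windows that held none of them was not computed. In the longer sequence printed first, GTCTG occurred on the reverse strand 110 bp to the left of the summit and TGATAA on the reverse strand 95.5 bp to its right. The distal region of puf-9 held GGCGC 4 bp right of its summit, and the region between puf-8 and cul-4 held GGCGC 4 bp left of it and GTCTG 47 bp left. The upstream region of puf-12 held GGCGC 49 bp to the right.

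Across all 4205 optimal windows, GTCTG was found in 24.3%, GGCGC in 23.5%, CAGACA in 12.7%, CACGTG in 9.44%, TGATAA in 18.9%, AGATAA in 10.2%, GAGAGAGA in 8.70% and GCCGNCGC in 2.35%. Among the 3 optimal windows of the family, GTCTG was present in 1, GGCGC in 2 and the others in 0. The GC content of the puf-9 summit window was 51.0%, above that of 84.0% of optimal windows, whose median was 43.0%. That of the distal region was 33.1% and that of the puf-8 and cul-4 region 43.7%. The family's 2 optimal windows with GGCGC were the distal one of puf-9 (rank 3901) and the puf-8 and cul-4 one (rank 1230). Signal with and without GGCGC was not compared over all optimal windows. A match, or its absence in a window, says nothing of the factor that was bound.

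By rank in all 3 lists, the genes most like puf-9 were iff-2, cox-5A, the ribosomal protein gene rpl-35, tag-340 and Y17G9B.5. Likeness was the distance in log10 rank over replicate 1, replicate 2 and the pooled list, which shares the reads of both. The distance to puf-9 was 0.0886 for iff-2 (ranks 8, 8 and 8), 0.109 for cox-5A (10, 11 and 10) and 0.189 for rpl-35 (7, 7 and 7). It was 0.245 for tag-340 (14, 12 and 11) and 0.305 for Y17G9B.5 (6, 6 and 6). Like that of puf-9, their summits all lay upstream of the nearest start, from 69 bp at iff-2 to 574 bp at tag-340.

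Genes for partners and RNA targets of PUF proteins were compared with the same background. Of 29 such genes in the annotation, 16 had an optimal region in the gene or within 5000 bp (55.2%), against 39.2% of protein-coding genes, and 3 had an optimal summit in a promoter window (egl-4, nos-3 and ccf-1), against 14.4%. The 29 genes also had more pooled regions of any height in reach, with a median of 7 against 3 over all protein-coding genes. These values were counted and not tested. The highest region was at lag-1, the transcription factor of the Notch pathway that maintains germline stem cells, 1524 bp upstream. Its signal was 139 in replicate 1, 180 in replicate 2 and 322 in the pooled list (rank 344). At nos-3, a Nanos-family partner of FBF, the summit lay 56 bp upstream, with a signal of 98.3 in replicate 1, 95.5 in replicate 2 and 197 in the pooled list (rank 952). At ccf-1, a deadenylase subunit of the CCR4-NOT complex that PUF proteins recruit, it lay 249 bp upstream with a pooled signal of 120 (rank 2145). None of these reached the height of the puf-9 region.

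At 7 of the 16, the highest region was nearest to the gene's own start, namely lag-1, egl-4, nos-3, daz-1, lip-1, mpk-1 and ccf-1. At the other 9, ccr-4, gld-1, htp-1, gld-2, lst-1, hbl-1, cpb-1, htp-2 and glp-1, it was nearer to another gene. The FBF target gld-1 had its highest region (signal 172) near T23G11.11, and the Notch receptor gene glp-1 had one of signal 72.5 near dos-1. No optimal region was found for 13, among them fem-3, fog-1, gld-3, nos-1, nos-2 and sygl-1.

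hbl-1, the target of PUF-9, lies 13836 bp to the left of puf-9 on X (chrX:5822142-5827755), so the pair share a neighbourhood. It had 2 optimal regions of moderate height. The one upstream, chrX:5821075-5821174, had its summit 1026 bp before the start, with a signal of 45.9 in replicate 1, 67.5 in replicate 2 and 113 in the pooled list (rank 2351). The other, past the 3′ end and nearer to acp-5, had a signal of 65.1 in replicate 1, 54.0 in replicate 2 and 122 in the pooled list (rank 2091). The replicates ordered the pair differently, with the upstream region higher in replicate 2 and the downstream one higher in replicate 1. Both lay far below the region at puf-9 in each list.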

How the data were processed

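GFP immunoprecipitates of SMA-3 from whole larvae had been sequenced by the authors in 2 biological replicates of 1 group. Per the deposited file listing, a list of regions was called from each replicate with 1 shared control. A pooled list was called from both replicates, and an optimal list followed from an irreproducible discovery rate procedure. Depth is unknown, and the aligner, caller and thresholds, not given in the sources used here, could change which regions are listed. Column 7 of the deposited lists is the authors' signal, of unstated scaling, and ranked regions within 1 list only. Column 9 is the authors' −log10 q. The ce10 lists were not used here.

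The lists on ce11 were joined to Ensembl release 115 genes and RefSeq sequence of the same assembly, WBcel235. No region ended past its chromosome. A region belonged to every gene it overlapped or lay within 5000 bp of, so 1 region can serve several genes. For a promoter window, a summit had to lie at most 1000 bp before or 200 bp after a transcript start. Replicates were matched by at least 1 shared bp. Motifs were searched on both strands within 75 bases of a summit.

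The members and gene lists were chosen with earlier results of these data known, so no test was run and values are descriptions. Named genes were the 9 members, family genes by symbol, the 5 genes most like puf-9 in log10 rank and a list of 30 partners and targets. Of these 30, 29 matched the annotation. The joins were tested on simulated data. Python 3.11.15, pandas 2.3.3, numpy 2.4.6 and matplotlib 3.10.9 were used.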

Additional observations from a re-analysis of the deposited data

How the results depend on the processing

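The rank of puf-9 was 9 in the pooled list at 2000, 5000 and 10000 bp, and 9 in each replicate alone. Its summit lay 297 bp upstream of the start, so each of these windows held the region and could not lower the rank. Of the 9 genes, 2 had an optimal region with 5000 bp around the gene, with the summit required inside, with coding spans and among the 2102 highest optimal regions, and 2 had a region among the 4205 highest of either replicate alone. The count with an optimal region was 1, namely puf-9, at 2000 bp, in promoter windows and by nearest start. It was 5 at 10000 bp, where puf-12, puf-11 and puf-5 joined. When all pooled regions counted, 8 genes had a region, as did 15474 of all 19973 protein-coding genes. The share over all protein-coding genes was 39.2% at 5000 bp and 14.4% in promoter windows. It was not computed at 2000 bp, at 10000 bp or by nearest start, so those counts have no background. Nor was it computed with the summit required inside, with coding spans or for the 4205 highest of either replicate. For the 2102 highest, the nearest share at hand was 24.9%, of protein-coding genes with a best pooled rank of 2103 or higher. Over the 8 genes other than puf-9, the counts at 2000 bp, in promoter windows and by nearest start were 0, 0 and 0. For these 8 genes, 4 had an optimal region at 10000 bp, and 7 had a region when all pooled regions counted. Their best pooled rank was 6451 at 2000 bp, in promoter windows and by nearest start, and 523 at 10000 bp. With 1 replicate left out, their best rank in the other replicate's list was 1175 to 1505. Optimal regions at puf-9 numbered 1 at 2000 bp, in promoter windows, by nearest start and among the 2102 highest, and 3 at 10000 bp. All pooled regions there numbered 10, and with 1 replicate left out 1 to 2 were among the 4205 highest of the other replicate. Genes whose highest optimal region was matched within the top 4205 of both replicates numbered 2 at 5000 bp and 5 at 10000 bp. The number was 1 at 2000 bp, in promoter windows, by nearest start and with a reciprocal overlap of 50%. With that overlap puf-8 dropped out, although its pooled region (191 bp) lay wholly inside the wider region of replicate 1 (384 bp). No share over all genes was computed for these matched counts, so they have no background. The 3 motif hits at member summits became 7 with 150 bases on either side. Of 52 alternative values, 25 kept the reported value within its margin and 27 moved. For counts the margin was a fixed ratio, wide enough that 2 and 3 regions counted as the same. For ranks it was the standard deviation between the 2 replicates, 0 for puf-9 and 233 for the best rank among the other members. The alternatives themselves (a narrower or wider window, a shorter or longer list) set which regions could count. No paired analysis was possible because there is 1 group. Unknown depth limits all values to ranks and counts of regions.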
